A study of Homo sapiens with 12 samples.

Results

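The H3K9me3 peaks of 4 genes that act in the methylation of lysine 9 on histone H3 are described in 293T cells: EHMT1, ATF7IP, TASOR and MORC2. H3K9me3, the trimethylated form of that lysine, marks silenced chromatin, so these are genes of the marking machinery to which peaks of the mark were assigned. In wild-type cells no peak was assigned to EHMT1. The peaks were those that the authors' lists assign to the 4 gene names, with TASOR under its older name FAM208A. They numbered 39 of 65170 peaks in SMARCA3 knockout (KO) cells and 18 of 46898 peaks in wild-type (WT) cells. The 4 names were chosen with earlier results of these lists known, so that all 4 had more peak bases in KO is a description and not a finding.

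The series holds 12 libraries, with 3 H3K9me3 ChIP and 3 input libraries from KO 293T cells and as many from WT 293T cells, called biological triplicates in the labels. 293T is a human embryonic kidney line with the SV40 large T antigen, and SMARCA3 (current symbol HLTF) encodes a DNA translocase with a RING finger. Whether the KO line is 1 clone is not given in the sources used here, and a peak list measures no expression, so neither the knockout nor the cell type could be checked. Each genotype has 1 deposited list, with no value per library. Read depth and the spread between replicates are therefore unknown here, no p-value was computed, and the differences below have no replicate check.

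EHMT1, also called GLP, is an H3K9 methyltransferase that works as a pair with EHMT2 (G9a) and places mainly the lower methylation states. The trimethyl mark at zinc finger genes and many retroelements comes largely from SETDB1, and ATF7IP is the partner that stabilises SETDB1 in the nucleus. TASOR is the scaffold of the HUSH complex, which it forms with periphilin (PPHLN1) and MPP8 (MPHOSPH8) and which silences retroelements and newly integrated DNA. MORC2 is an ATPase that HUSH recruits to compact chromatin. SETDB1 is brought to many of its sites by TRIM28 and KRAB zinc finger proteins.

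ATF7IP carried most of the peaks of the 4 genes, 28 of 39 in KO and 16 of 18 in WT. Of 4943 protein-coding genes with a peak in either list, KO exceeded WT in peak bases at 77.6% and fell below it at 22.3%. As deposited, 50.9% of these genes had at least 1.5 times the WT bases or no WT peak. All 4 genes met this rule in the deposited lists. A KO peak without a WT peak was found at 16.4% of the 4943 genes, and EHMT1 was such a gene. Of the 39 KO peaks of the 4 genes, 18 met a WT peak by at least 1 bp (46.2%, Wilson 95% interval 31.6 to 61.4), beside 50.5% of all KO peaks. Of their 18 WT peaks, 17 met a KO peak (94.4%, 74.2 to 99.0), beside 80.1% of all WT peaks. Peak bases came to 31032 in KO and 14524 in WT, and 12704 bases lay in both, which is 40.9% of the KO and 87.5% of the WT bases. The intervals cover the counting of peaks only and treat the peaks as independent. Most lay at ATF7IP, and merging peaks less than 1 kb apart left 15 KO and 11 WT blocks, so the intervals may be too narrow.

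EHMT1, the methyltransferase, lies on chromosome 9 from 137619005 to 137836127 (RefSeq, GRCh38.p14, plus strand) over 217 kb. The KO list assigned 4 peaks to it and the WT list had 0. The KO peaks were 1225, 1008, 530 and 624 bp wide, with the authors' fold enrichments (ChIP signal over background at a peak) of 3.47, 4.11, 3.25 and 3.96. All 4 were of the gene-body class. Only the first of them lay inside the RefSeq gene, from 137702185 to 137703409, which is 83180 bp past the start. The other 3 lay between 137853672 and 137861266, at least 17545 bp beyond the RefSeq end of the gene. They were assigned to EHMT1 through an Ensembl transcript that runs from 137744064 to 137870016. By overlap with the RefSeq gene body, EHMT1 thus had 1 KO peak of 1225 bp and no WT peak.

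The surroundings of EHMT1 were poor in peaks. Its start lay 142555 bp from the nearest upstream KO peak and 142573 bp from the nearest upstream WT peak, both in PNPLA7, a lysophospholipase gene. No peak of either list fell in the 100 kb before the gene. In the 100 kb after its RefSeq end there were 6 KO peaks over 3828 bp and 1 WT peak of 1328 bp. Of these KO peaks, 3 over 2162 bp were the peaks assigned to EHMT1 itself, which left 3 other KO peaks over 1666 bp. That WT peak lay in CACNA1B, the gene of a neuronal calcium channel, and CACNA1B as a whole had 16 KO and 9 WT peaks, with 15218 and 8811 peak bases in KO and in WT.

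ATF7IP, the SETDB1 partner, was the most marked of the 4 genes in both lists. It lies on chromosome 12 from 14365682 to 14502930 (plus strand) over 137 kb, and it had 28 peaks over 20004 bp in KO and 16 peaks over 12058 bp in WT. Only 58 protein-coding genes had as many KO peaks or more, itself included, which is 1.24% of the genes with a KO peak, and 123 had as many WT peaks or more. Peaks covered 14.6% of its body in KO and 8.79% in WT. The ratio of KO to WT peak bases was 1.66, beside 1.71 for all of chromosome 12 and 1.59 for the whole lists. The surplus of KO bases at ATF7IP was thus close in ratio to that of its chromosome.

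Peaks of ATF7IP were gathered in the 5′ part of the gene and again near 110 kb. The first group held 26 KO peaks and 15 WT peaks and ended 57.3 kb from the start in both lists. A stretch of 49.2 kb in KO and 49.4 kb in WT followed with no peak. Beyond it came 2 KO peaks, 1667 and 1384 bp wide (14472143 to 14473809 and 14473968 to 14475351), where WT had a single peak of 3036 bp (14472429 to 14475464). Those peaks held 3051 bases in KO and 3036 bases in WT, so the extra KO peak there came with almost no extra bases. The last 27.6 kb of the gene in KO and 27.5 kb in WT were again without a peak.

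The strongest peak of ATF7IP lay at the same place in both lists. It ran from 14378581 to 14380544 in KO, with a fold of 5.67 and a q-value of 2.2e-19, and from 14378597 to 14380617 in WT, with a fold of 5.50 and a q-value of 4.6e-14. Within its own list it stood at percentile 95.9 of all KO folds and percentile 95.2 of all WT folds. The peak past the empty stretch came next in WT, with a fold of 5.19. Of its 2 KO parts, the one with a fold of 5.13 came next in KO. The other part, with a fold of 4.05, was weaker than several other KO peaks of ATF7IP. Over all its peaks the fold ran from 2.52 to 5.67 with a median of 3.55 in KO, and from 2.77 to 5.50 with a median of 3.89 in WT. The medians over all peaks were 3.59 in KO and 3.77 in WT, so the peaks of ATF7IP were many but of usual strength.

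**Figure D1:**
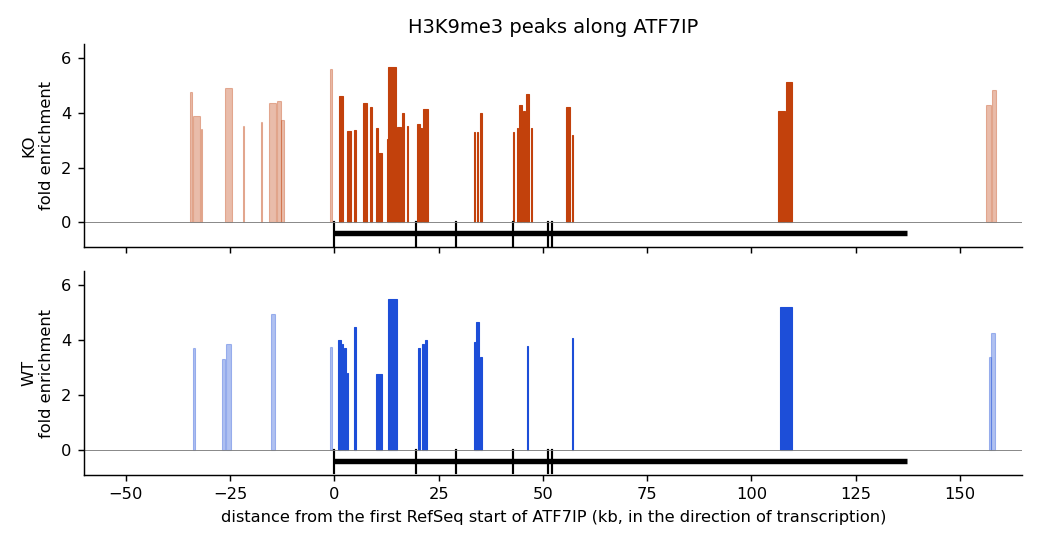
Peaks along ATF7IP in KO (upper panel) and WT (lower panel), with the distance from the first RefSeq start in kb on the x axis and the authors' fold enrichment on the y axis. Solid bars are peaks assigned to ATF7IP, pale bars other peaks within 100 kb, the black line is the RefSeq gene and its ticks are RefSeq starts; both lists show peaks up to 57.3 kb, a long empty stretch and a last group ending at 110 kb.

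Where the lists differed at ATF7IP, KO had further peaks between those of WT. Overlapping peaks of the 2 lists formed 26 regions, of which 13 held peaks of both lists, 12 of KO alone and 1 of WT alone. The 12 KO peaks that met no WT peak held 6829 bases, with a median width of 499 bp and folds from 3.05 to 4.36. The 16 KO peaks that met one held 13175 bases, with a median width of 652.5 bp and folds from 2.52 to 5.67. The median fold was 3.74 in the 12 and 3.51 in the 16, so the 12 were not weaker at the median. One run of KO peaks without a WT peak lay from 14380675 to 14383405, where 3 peaks of 1002, 556 and 321 bp adjoined the strongest peak. Another lay from 14408499 to 14411438, with 4 peaks of 334, 301, 617 and 620 bp. The WT peak without a KO peak ran from 14368069 to 14368410, with a fold of 3.69, and lay between KO peaks that ended at 14367755 and began at 14368592. When peaks of a list less than 1 kb apart were merged, ATF7IP had 9 blocks in each list.

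TASOR, the HUSH scaffold, lies on chromosome 3 from 56620132 to 56683265 (minus strand) over 63.1 kb. Its 4 KO peaks covered 3721 bp and its single WT peak 894 bp, all with their midpoints within 3 kb of its start and in the authors' promoter classes, which extend 3 kb up- and downstream of a transcript start. Upstream of the start, KO peaks ran from 56683746 to 56685088 with a fold of 4.30 and from 56685211 to 56685688 with a fold of 2.41. The WT peak, from 56683787 to 56684680, lay wholly inside the first of these. Its fold of 2.10 and q-value of 1.3e-03 put it at percentile 0.341 of all WT folds, among the weakest peaks of that list. Downstream of the start, inside the gene, KO peaks ran from 56680616 to 56682073 with a fold of 3.58 and from 56680084 to 56680525 with a fold of 3.08, and WT had none. The KO peak that met the WT peak had a q-value of 6.2e-20 and stood at percentile 79.5 of its list.

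By overlap with the RefSeq body, TASOR had 2 KO peaks over 1900 bp and no WT peak, since the upstream peaks fell outside the gene. The ratio of KO to WT peak bases by assigned name was 4.16, beside 1.58 for chromosome 3, but it rests on 1 weak WT peak. No other part of the gene held a peak in either list. The neighbouring CCDC66, the gene of a centrosomal and ciliary protein that overlaps the 3′ end of TASOR, had 0 KO peaks and 1 WT peak of 489 bp. The 100 kb before and after the gene held 822 and 2100 bases in KO, and 1025 and 894 bases in WT, counted along the chromosome, with the upstream peaks of TASOR itself included.

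MORC2, the ATPase, lies on chromosome 22 from 30925130 to 30968774 (minus strand) over 43.6 kb. It had 3 KO peaks over 3920 bp and 1 WT peak of 1572 bp, all within the first 4.93 kb of the gene. The WT peak, from 30966516 to 30968087 with a fold of 3.93 and a q-value of 3.5e-14, lay wholly inside a KO peak from 30965534 to 30968354 with a fold of 4.46 and a q-value of 1.6e-28. That KO peak was 2821 bp wide, the widest KO peak at any of the 4 genes. The other 2 KO peaks continued into the gene, at 802 bp with a fold of 3.04 and at 297 bp with a fold of 2.74. Merged over gaps of less than 1 kb, MORC2 had 1 block in each list. The ratio of KO to WT peak bases was 2.49, beside 2.11 for chromosome 22.

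Next to MORC2 lay the widest peak near any of the 4 genes. It covered most of TUG1, a long noncoding RNA gene that starts on the other strand 491 bp beyond MORC2 (30969265 to 30979395). The peak ran from 30970288 to 30980888 in KO, 10601 bp wide with a fold of 6.95, and from 30970328 to 30980662 in WT, 10335 bp wide with a fold of 5.41. It covered 89.9% of TUG1 in KO and 89.5% in WT. Only 46 KO peaks and 15 WT peaks were as wide or wider in the whole lists, itself included. The lists gave it to different names, AC004542.2 in KO and TUG1 in WT, so a count by assigned gene would differ at TUG1 although the peak lay at nearly the same position in both lists. Further peaks followed up to 30989619 and at intervals beyond in KO, and up to 30986125 in WT, so that the 100 kb on that side held 12 KO peaks over 19020 bp and 6 WT peaks over 13163 bp.

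**Figure D2:**
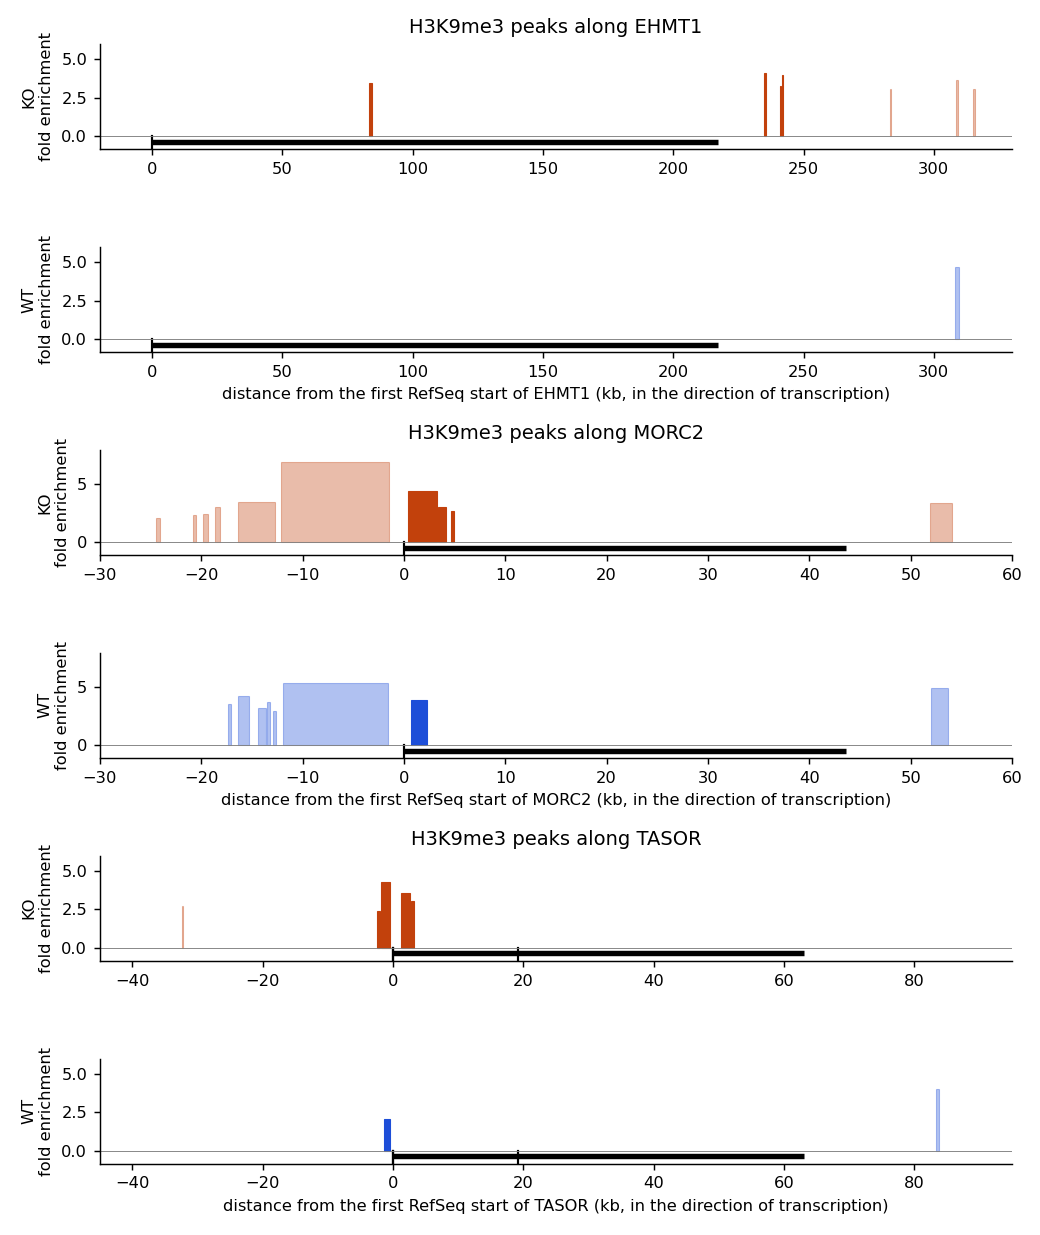
Peaks along EHMT1, MORC2 and TASOR, KO above WT for each gene, with the distance from the first RefSeq start in kb (x axis) and the fold enrichment (y axis). Solid bars are peaks assigned to the gene, pale bars other peaks within 100 kb, and the black line is the RefSeq gene; the peaks of MORC2 and TASOR lie beside the start, and the wide pale bar left of MORC2 is the TUG1 peak, 10601 bp wide in KO and 10335 bp wide in WT.

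At ATF7IP, MORC2 and TASOR the first RefSeq start itself lay in a gap between peaks. At ATF7IP the gap was 1750 bp in KO (14365145 to 14366894) and 1460 bp in WT (14365086 to 14366545). At MORC2 it was 1933 bp in KO (30968355 to 30970287) and 2240 bp in WT (30968088 to 30970327). At TASOR it was 1672 bp in KO (56682074 to 56683745), and in WT it was 83844 bp, because no WT peak lay on the gene side until CCDC66. Around the start, KO peaks were nearer than WT peaks on each side of MORC2 and TASOR. At ATF7IP the KO peak was nearer upstream, at 538 bp against 597 bp in WT, and the WT peak was nearer downstream, at 1213 bp in KO and 864 bp in WT.

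Few protein-coding genes had a peak near their outermost start, and at most of those that did the start itself was free of a peak. Of 13819 protein-coding genes with a promoter window at their outermost RefSeq start, 1.05% had no KO peak on the start but a KO peak within 3 kb on both sides, as ATF7IP, MORC2 and TASOR had. In the WT list the share was 0.427%, and ATF7IP and MORC2 were among them. A peak within 3 kb on at least 1 side, with none on the start, was found at 4.41% of these genes in KO and 2.84% in WT, and TASOR in WT was such a case. A peak lay on the start itself at 0.253% of these genes in KO and 0.0724% in WT. In counts, these were 35 genes in KO and 10 in WT, beside 609 in KO and 393 in WT with a nearby peak and a free start. The start is 1 base and the neighbourhood 3 kb on each side, so these counts do not show that starts were spared. This measure was chosen after the peaks of the 4 genes had been seen, so it describes them and tests nothing.

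The sequences before these starts are shown to set the CpG content of first starts in a gap between peaks beside that of an inner start of ATF7IP with a peak next to it. Each line gives the 250 bases before a start, 5′ to 3′ on the strand of the gene, from RefSeq (GRCh38.p14), with every CG in capitals. They are chr12:14365432-14365681 (plus strand), chr22:30968775-30969024 (minus strand), chr3:56683266-56683515 (minus strand) and chr12:14408240-14408489 (plus strand).
ATF7IP first start: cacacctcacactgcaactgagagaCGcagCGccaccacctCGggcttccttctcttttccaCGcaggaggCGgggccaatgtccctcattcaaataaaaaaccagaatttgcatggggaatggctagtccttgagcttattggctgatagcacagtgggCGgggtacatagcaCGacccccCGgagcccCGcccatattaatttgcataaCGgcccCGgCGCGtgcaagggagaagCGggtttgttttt
MORC2 start: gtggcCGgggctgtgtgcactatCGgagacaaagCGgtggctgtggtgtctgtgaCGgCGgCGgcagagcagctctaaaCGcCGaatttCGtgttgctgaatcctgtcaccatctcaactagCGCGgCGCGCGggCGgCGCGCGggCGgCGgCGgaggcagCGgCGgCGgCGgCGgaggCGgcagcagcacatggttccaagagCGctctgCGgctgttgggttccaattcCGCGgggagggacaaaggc
TASOR start: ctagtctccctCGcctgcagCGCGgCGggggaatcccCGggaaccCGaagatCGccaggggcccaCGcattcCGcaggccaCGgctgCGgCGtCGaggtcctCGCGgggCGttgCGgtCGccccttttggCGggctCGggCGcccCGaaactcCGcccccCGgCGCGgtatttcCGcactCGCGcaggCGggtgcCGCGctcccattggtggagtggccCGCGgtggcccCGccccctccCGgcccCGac
ATF7IP inner start: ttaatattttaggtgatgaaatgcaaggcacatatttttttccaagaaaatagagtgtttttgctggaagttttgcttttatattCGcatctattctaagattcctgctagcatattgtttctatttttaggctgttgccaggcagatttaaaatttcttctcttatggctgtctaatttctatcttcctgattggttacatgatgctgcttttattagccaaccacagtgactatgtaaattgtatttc

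The 3 first starts, free of peaks, held 14 CG at ATF7IP, 31 at MORC2 and 37 at TASOR, and the first start of EHMT1 held 43. The median over 35116 windows of the promoter table was 11, and 93.9% of windows held at least 1 CG, a motif that reads the same on both strands. At least 14, as at ATF7IP, were found in 44.8% of windows, at least 31 in 10.9% and at least 37 in 4.00%. The 5 inner RefSeq starts of ATF7IP held 0 to 2 CG each, and 22.9% of all windows held 2 or fewer. An inner start of TASOR, at 56664046, held 1 CG and also had no peak on its window, with the nearest KO peaks 16038 bp upstream and 111683 bp downstream. A low CG count thus occurred with and without nearby peaks. Of the 5 inner starts of ATF7IP, the one shown was the only one with a peak on its window of 300 bases. There the first peak of the KO run from 14408499 to 14411438 began 9 bp after the start, and the nearest WT peaks were 7524 bp upstream and 3387 bp downstream. A KO peak on such a window was found at 0.632% and a WT peak at 0.245% of all windows.

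**Figure D3:**
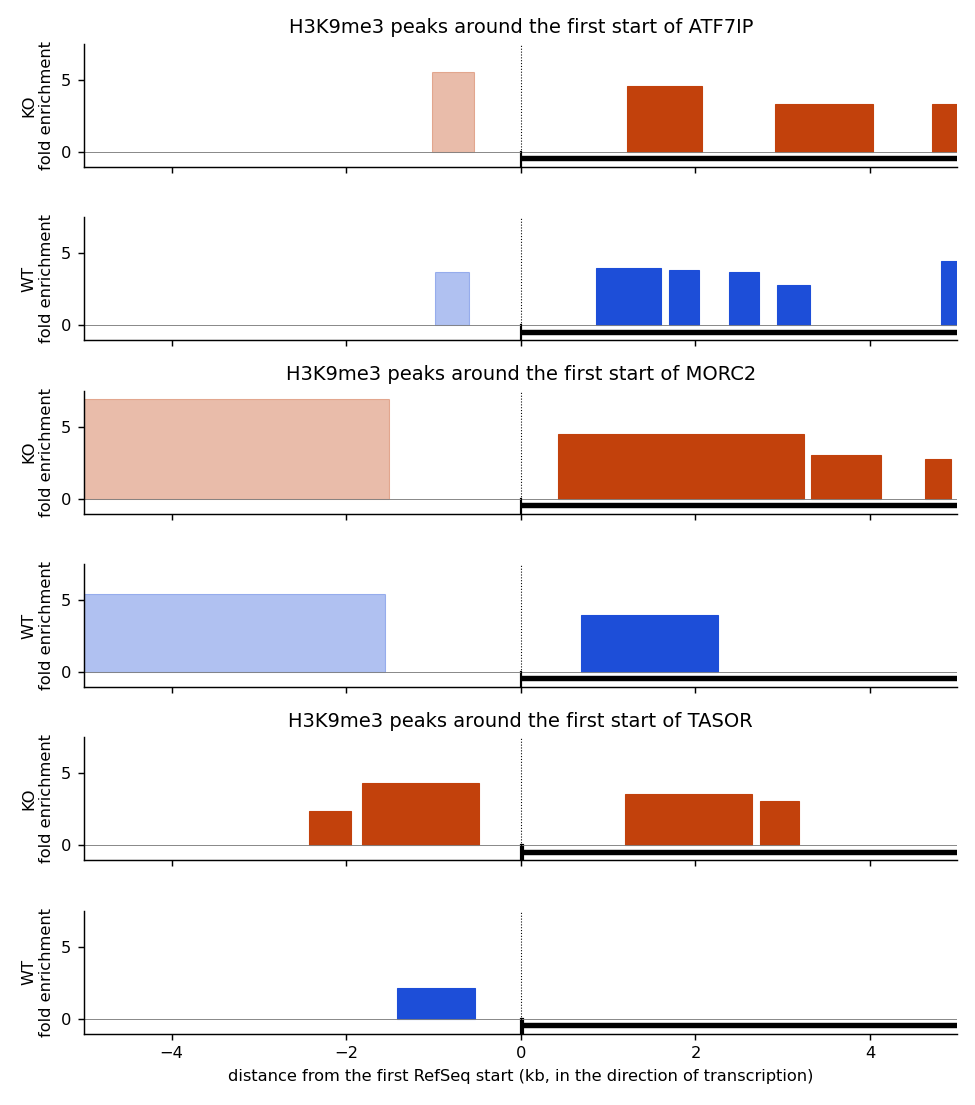
Peaks within 5 kb of the first RefSeq start (dotted line at 0) of ATF7IP, MORC2 and TASOR, KO above WT for each, with distance in kb on the x axis and fold enrichment on the y axis. Solid bars are peaks assigned to the gene and pale bars are other peaks; in KO all 3 starts lie in gaps of 1672 to 1933 bp with peaks on both sides, and in WT TASOR has a peak on 1 side only.

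The authors' promoter classes at ATF7IP referred mostly to inner transcript starts. They held 13 of its 28 KO peaks and 8 of its 16 WT peaks, but the midpoint of only 1 KO peak and 3 WT peaks lay within 3 kb of the first RefSeq start. The first KO peak, from 14366895 to 14367755, spanned an Ensembl transcript start at 14367324 that lies downstream of the RefSeq one. Upstream of the first RefSeq start, the nearest peaks of both lists were assigned to the pseudogene RPL30P11. They ran from 14364668 to 14365144 in KO with a fold of 5.58 and from 14364698 to 14365085 in WT with a fold of 3.73.

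KO had more peak bases than WT on both sides of ATF7IP as well as inside it. The 100 kb before the gene held 13 KO peaks over 10243 bp (10.2% of the flank) and 5 WT peaks over 3878 bp (3.88%). The 100 kb after it held 3 KO peaks over 2660 bp and 2 WT peaks over 1493 bp, with 2 peaks of each list in PLBD1, a phospholipase-like gene. The 100 kb flanks of MORC2 on the side away from TUG1 held 3337 bp in KO and 2649 bp in WT. Summed over both flanks, KO exceeded WT by 7532 bases at ATF7IP, 2500 at EHMT1, 6545 at MORC2 and 1003 at TASOR. These sums hold peaks assigned to the genes themselves, 2162 bp in KO at EHMT1, and 1821 bp in KO and 894 bp in WT at TASOR. Without those peaks the surplus was 338 bases at EHMT1 and 76 at TASOR, and it did not change at ATF7IP and MORC2. Within 100 kb, KO thus exceeded WT mainly at ATF7IP and MORC2. This contrast did not hold in flanks of 500 kb, the peaks of the genes themselves included. There the surplus was 13358 bases at ATF7IP, 8764 at EHMT1, 8753 at MORC2 and 6557 at TASOR.

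The surplus at each gene depended on which peaks were counted, and its direction did not change under the choices tried. At EHMT1, with no WT peak, the direction could not reverse. Among peaks whose fold reached the pooled median of 3.69, ATF7IP had 13 peaks in each list, over 11996 bp in KO and 9854 bp in WT. With the KO list shortened to the length of the WT list, it had 25 KO peaks when ranked by fold and 17 when ranked by q-value, against 16 in WT, and KO minus WT was 6222 and 3152 bases. MORC2 kept 1 KO and 1 WT peak when ranked by fold, at 2821 bp in KO and 1572 bp in WT. TASOR kept 2 KO peaks over 2801 bp, against 894 bp in WT, and at or above the pooled median fold it had 1343 bp in KO and 0 in WT. EHMT1 kept 3 KO peaks when ranked by fold and 4 when ranked by q-value, over 2857 and 3387 bp, and had no WT peak.

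**Figure D4:**
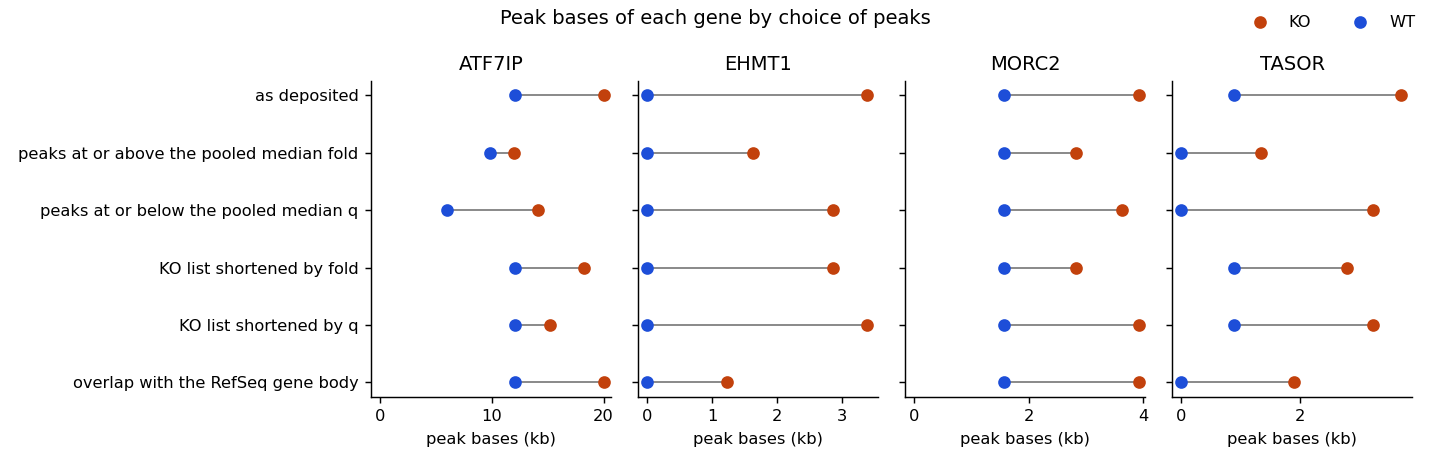
Peak bases in kb (x axis, from 0, a separate scale for each gene) of ATF7IP, EHMT1, MORC2 and TASOR in KO and in WT under each choice of peaks or of gene assignment (rows). KO lies to the right of WT in every row, and the distance at ATF7IP shrinks to 2142 bases among peaks at or above the pooled median fold.

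The genes nearest to the 4 in their pattern were looked for by peak bases, as the Euclidean distance of log2(peak bases + 1000) over the 2 lists. Nearest to ATF7IP were PXDNL with 19680 bases in KO and 11741 in WT, ZNF624 with 19990 in KO and 11444 in WT, and ZNF112 with 20570 in KO and 11514 in WT. Nearest to EHMT1 were MISP, PCSK2 and ZNF292, with 3342 to 3612 bases in KO and none in WT. Nearest to MORC2 were ASB3, C13orf42 and TXNRD1, with 3891 to 3989 bases in KO and 1575 to 1600 in WT. Nearest to TASOR were CPA6, CD36 and SPAG17, with 3580 to 3632 bases in KO and 894 to 966 in WT. The zinc finger genes ZNF624 and ZNF112 had 17 and 18 KO peaks and 10 and 17 WT peaks, so like bases came with unlike numbers of peaks.

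A wider list of 34 genes that write, bind, read or erase H3K9 methylation showed no common direction outside the 4. In it 16 genes had a KO peak and 16 a WT peak, or 47.1% in each. Of all protein-coding genes, 23.4% had a KO peak and 20.6% a WT peak. The 34 include the 4 genes, which were chosen with their peaks known. Without the 4, 12 of 30 had a KO peak (40.0%) and 13 had a WT peak (43.3%). The genes of the list are also longer, with a median of 60.3 kb against 24.1 kb over all protein-coding genes. KO exceeded WT in peak bases at 13 of them and fell below it at 6. Among all protein-coding genes, with or without a peak, 19.1% had more and 5.51% fewer. The 13 and 6 were the 19 genes of the list with a peak in either list. Among protein-coding genes with a peak in either list, 77.6% had more KO bases and 22.3% fewer. The median difference was 0 in the list and 0 over all protein-coding genes. Leaving out the 4 genes, 9 of 30 had more KO bases and 6 had fewer, so 15 carried a peak in either list. With the KO list shortened to equal length by fold, 9 of the 34 had more and 8 fewer. Among all protein-coding genes, with or without a peak, 13.5% then had more and 9.43% fewer. A KO peak was then found at 13 of the 34 and a WT peak at 16, beside 20.0% in KO and 20.6% in WT of all protein-coding genes.

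Among the writers, SETDB1 itself had 3 KO peaks over 1053 bp and no WT peak, at folds up to 3.19. SETDB2, its relative, had 1683 bases in KO and 793 in WT, and PRDM2, another methyltransferase gene, had no KO peak and 1 WT peak of 345 bp. Neither list had a peak at SUV39H1, SUV39H2 or EHMT2. Among the partners of SETDB1 and the HUSH genes, ATF7IP2, the paralogue of ATF7IP, had 17 KO peaks over 9614 bp and 6 WT peaks over 2270 bp, a ratio of 4.24. RESF1, whose product binds SETDB1 in mouse embryonic stem cells, had 8988 bases in KO and 4575 in WT, with folds up to 6.99 in KO and 5.58 in WT. Of the HUSH core, PPHLN1 had 1 KO peak of 274 bp and no WT peak, and MPHOSPH8 had none in either list. TRIM28 had none either, and TASOR2, the paralogue of TASOR, had a single WT peak of 283 bp.

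The partners and relatives of the methyltransferases held the largest amounts. CDYL, a chromodomain protein gene whose product binds EHMT2, had 41 KO peaks over 40250 bp and 31 WT peaks over 23580 bp, more than any of the 4 genes in either list. ZNF644, which encodes a zinc finger partner of EHMT2 and EHMT1, had fewer KO than WT bases, with 7 KO peaks over 9364 bp and 13 WT peaks over 11614 bp. Of the readers, the HP1 genes CBX1, CBX3 and CBX5 had no peak, and CDYL2 had 1938 bases in KO and 318 in WT. Of 9 erasers, 2 had more KO bases, with KDM4B at 2378 in KO and 751 in WT and PHF2 at 937 in KO and 749 in WT. KDM3A had 1 wide peak in each list, 4472 bp in KO and 4576 bp in WT, with folds of 7.88 in KO and 6.77 in WT. KDM3B had a WT peak of 289 bp alone, and PHF8 had 734 bases in KO and 1025 in WT. UHRF1 and DNMT1, which link the mark to DNA methylation, had no peak.

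**Figure D5:**
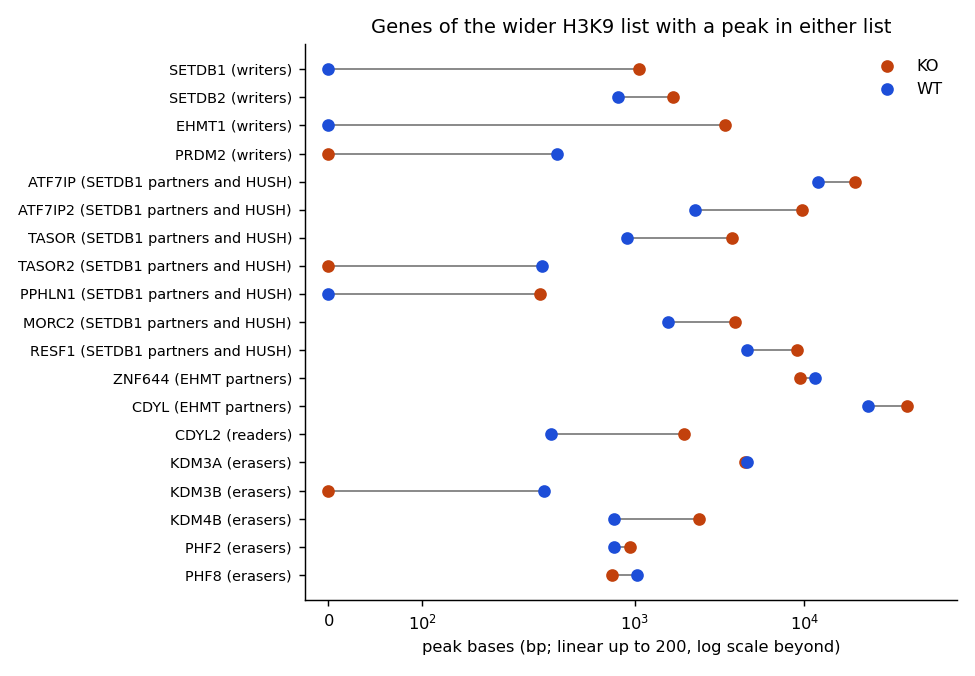
Peak bases in KO and in WT (x axis, linear up to 200 bp and logarithmic above) of the 19 genes of the wider list with a peak in either list, grouped by role (rows). KO exceeds WT at 13 genes, with CDYL highest in both lists, and lies below WT at PRDM2, TASOR2, ZNF644, KDM3A, KDM3B and PHF8.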

How the data were processed

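The series holds H3K9me3 ChIP-seq of KO and WT 293T cells, grouped by the titles in the labels. Per the submitters' processing notes HISAT2 and hg38 were used; which program called peaks, with what settings and input, and how the 3 libraries per genotype were joined, is not given in the sources used here. Each of the 2 deposited lists gives a peak a position, a fold enrichment, which is a linear ratio whose background the authors' header does not define, and a q-value within that list. Both are the authors' values and were used only to describe, rank or filter peaks.

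The gene members, gene lists and measures were chosen with earlier results of these data known. Genes named are the 4 members, those of the wider list with a peak, the genes of the nearest peaks and, for each member, the 3 genes nearest by peak bases; genes of the wider list without a peak are named after their values were seen. Positions were read as counted from 1, and overlap means at least 1 bp. Names of the lists were matched to RefSeq genes (GRCh38.p14), used as hg38, with 4945 of 5037 protein-coding names matched (98.2%). The shares of peaks of the 4 genes that met the other list by 1 bp carry Wilson 95% intervals, which cover counting only. Other percentages carry none. The intervals came from SciPy 1.17.1 under Python 3.11.15 with pandas 2.3.3. The overlap functions were tested on simulated intervals. Exon positions and a genome were not used here. Alternatives were the pooled median fold (3.69) and q-value (1.7e-07), KO lists of WT length, overlap with gene bodies, other overlap rules, merged peaks and other flanks.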

Additional observations from a re-analysis of the deposited data

How the results depend on the processing

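No paired analysis was possible because the lists carry no replicate numbers, and for the same reason the edgeR test, the replicate block and the leaving out of single libraries were not run. The difference in peak bases kept its sign at all 4 genes in every alternative tried. At EHMT1, which had no WT peak, it could not reverse. TASOR lost its only WT peak under the fold, q-value and gene-body rules. The 4 names were also chosen with earlier results of these lists known, so the kept sign is a description and no check. The 4 genes had 39 KO and 18 WT peaks as deposited, but 17 KO and 14 WT peaks at or above the pooled median fold, 23 KO and 5 WT peaks at or below the pooled median q-value, and 15 KO and 11 WT blocks when peaks less than 1 kb apart were merged. In the wider list 9 of 34 genes had a WT peak under either limit, beside 16.0% of all protein-coding genes at the fold limit and 14.3% at the q-value limit, and 8 had more KO bases at or above the median fold, where 12.2% of all protein-coding genes did. When 50% of both peaks had to overlap, 28.2% of KO and 61.1% of WT peaks of the 4 genes met the other list, beside 29.0% of all KO and 40.3% of all WT peaks. Under the fold limit 57.1% of their WT peaks did, beside 64.3% of all WT peaks. In flanks of 500 kb, KO exceeded WT by 13358 bases at ATF7IP, 8764 at EHMT1, 8753 at MORC2 and 6557 at TASOR. In flanks of 100 kb without the peaks of the gene itself, an alternative chosen after seeing the data, the surplus was 338 bases at EHMT1 and 76 at TASOR. The cause of these shifts was not tested. Read depth is unknown here, so an absent peak is one not called, not a place shown to be unmarked.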
